A study of Mus musculus with 24 samples.

Results

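The 39 protein-coding Hox genes of the 4 mouse clusters were followed through explants of 2 skeletal tissues, hip and foot. They were chosen by symbol from the 52178 genes of the count table (Hox, a cluster letter from a to d, and a number from 1 to 13, without antisense genes), which gave 11 genes of the Hoxa cluster on chromosome 6, 10 of Hoxb on chromosome 11, 9 of Hoxc on chromosome 15 and 9 of Hoxd on chromosome 2. Hip caps were the femoral head cartilage of 4-week-old male mice, with both caps of 1 mouse pooled in each library. Metatarsals were the foot bones of E15 embryos, with 6 bones pooled in each library and the sex of the embryos not given. The strain is C57/BL6 in the labels and C57/BL6J in the study's methods. After 24 h in culture each tissue received no pressure (control), 5 MPa or 50 MPa of hydrostatic pressure for 1 h and was cultured for another 24 h, with 4 libraries in each of the 6 groups. Nothing says that the pools of metatarsals came from separate embryos, so p-values measure the spread between libraries, which may in part be technical. The tissues also differed in age and culture medium and may have differed in sex. Age, medium and sex cannot be told apart from position along the limb.

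Hox proteins are homeodomain transcription factors that give cells a position along the body and limb axes. Within a cluster the genes stand in the order of their paralogue numbers, and genes of low number are used further forward or closer to the body than genes of high number. In the limb, paralogue groups 9 and 10 act mainly in the upper segment that holds the femur, group 11 in the lower leg and group 13 in the hand or foot, while the Hoxd genes of high number are switched on together in the developing digits. Cartilage and connective tissue cells keep part of this positional pattern after birth.

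Among the libraries that the study used, the change of direction within the Hoxd cluster fell between a pair of neighbouring genes, Hoxd10 and Hoxd9. Their start sites lie 5872 bases apart. The 250 bases before the start site are printed here for this pair, for Hoxd8, the next gene on the side that was higher in hip caps, and for Hoxd13, the last gene on the side that was higher in metatarsals, because they span the change of direction. All 4 windows are on the plus strand of chromosome 2 in the GRCm38.p6 build, from RefSeq: Hoxd13 at chr2:74667975-74668224, Hoxd10 at chr2:74691641-74691890, Hoxd9 at chr2:74697513-74697762 and Hoxd8 at chr2:74704365-74704614. Capitals mark TATAAA and CCAAT on either strand, and in Hoxd13 the TATAAA matches of both strands overlap.
Hoxd13: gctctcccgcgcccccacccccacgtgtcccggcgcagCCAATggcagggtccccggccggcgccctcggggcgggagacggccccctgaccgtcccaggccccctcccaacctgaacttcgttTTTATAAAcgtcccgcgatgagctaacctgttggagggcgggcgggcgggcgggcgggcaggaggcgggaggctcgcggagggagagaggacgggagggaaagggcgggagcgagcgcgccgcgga
Hoxd10: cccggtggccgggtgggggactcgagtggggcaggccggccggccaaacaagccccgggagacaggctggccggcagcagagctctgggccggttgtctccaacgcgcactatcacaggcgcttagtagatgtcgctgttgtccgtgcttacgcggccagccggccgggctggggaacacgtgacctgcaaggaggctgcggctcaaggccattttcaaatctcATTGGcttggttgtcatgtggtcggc
Hoxd9: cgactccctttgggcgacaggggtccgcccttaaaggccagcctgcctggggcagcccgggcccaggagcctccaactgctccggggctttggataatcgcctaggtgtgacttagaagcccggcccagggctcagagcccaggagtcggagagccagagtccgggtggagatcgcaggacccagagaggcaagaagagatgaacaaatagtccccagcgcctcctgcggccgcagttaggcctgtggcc
Hoxd8: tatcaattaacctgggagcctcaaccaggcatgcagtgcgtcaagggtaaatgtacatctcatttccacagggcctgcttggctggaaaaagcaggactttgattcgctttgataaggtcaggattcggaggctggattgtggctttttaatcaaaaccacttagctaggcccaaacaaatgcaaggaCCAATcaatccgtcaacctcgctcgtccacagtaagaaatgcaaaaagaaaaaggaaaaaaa

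Hoxd13 and Hoxd10, both higher in metatarsals, had 31 and 20 CG dinucleotides in these windows, and Hoxd9 and Hoxd8, both higher in hip caps, had 13 and 6. The CG content did not follow the tissue difference over the cluster, because Hoxd12 had 10 and the 2 windows of Hoxd11 had 2 and 20, although both genes were higher in metatarsals. RefSeq promoters were matched for 22 of the 39 Hox genes in 24 windows, with a median of 12.5 CG dinucleotides against 6 over all 32851 windows. CCAAT was found in 14 of the 22 genes, and 33.8% of all windows held it on either strand. TATAAA was found in 4 genes (12.4% of all windows), TTTATNG, a form of the site bound by group 9 to 13 proteins, in 2 (9.81%), and TAATTA, the core homeodomain site, in 1 (4.84%). A gene with 2 windows counted when either held the match, so the counts of genes and the shares of windows differ in unit. All are matches of letters in a short window and not binding sites.

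The libraries held 4185241 to 25104240 estimated counts. Control hip cap replicate 4 and 50 MPa hip cap replicate 2 were left out by the study and are left out here unless stated, which leaves 22 libraries. Levels are CPM, counts relative to the library total, with TMM scaling, the edgeR scaling that lines libraries up on the bulk of their genes, and genes are compared with each other only per kilobase of the longest coding transcript. A gene was called when its adjusted p in edgeR's quasi-likelihood test, with sequencing run and library type in the model, was at most 0.05 over 21283 genes tested. Of the 39 Hox genes, 34 passed the filter on low counts. The others, Hoxb8, Hoxb13, Hoxc12, Hoxc13 and Hoxd1, had too few counts for a test. All 15 cartilage markers were detected in every library, with summed levels of 24433 to 84707 CPM in hip caps and 2183 to 5641 CPM in metatarsals. Muscle markers summed to 37.0 to 86.1 CPM in hip caps (4 to 14 of 15 detected) and 515 to 2778 CPM in metatarsals (15 of 15), epidermal markers to 0.922 to 2.35 CPM (1 to 2 of 6 detected, Krt5 at 0 throughout) and 4.46 to 226 CPM (2 to 6 of 6), and perichondrial and limb connective tissue markers to 1710 to 6904 CPM (9 or 10 of 10) and 4937 to 7590 CPM (10 of 10). The 226 CPM of epidermal markers was in control metatarsal replicate 2 alone, and the other metatarsal libraries were at 4.46 to 8.05 CPM. Leukocyte markers summed to 122 to 887 CPM in hip caps (7 to 12 of 12) and 67.5 to 133 CPM in metatarsals (6 to 10 of 12). The part of these cells in the Hox differences was not tested, and in such bulk samples fewer cells of a type and less RNA per cell cannot be told apart.

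With TMM scaling and per kilobase of the longest coding transcript, both tissues carried a similar amount of Hox transcript, made up of different genes. Without pressure the 39 genes summed to 147 ± 13.8 CPM per kb in hip caps (SD, n = 3) and 135 ± 7.44 in metatarsals (n = 4). Over the union of exons the totals were 108 to 131 in control hip caps and 91.1 to 104 in control metatarsals, without overlap. TMM set the library size used for CPM below the total counts in the control hip caps used and above it in control metatarsals. Without TMM the hip cap total would therefore be lower beside that of metatarsals. The Hoxc cluster supplied 55.3% ± 1.78 of the Hox total in control hip caps and 3.14% ± 1.08 in control metatarsals. Hoxd10 to Hoxd13 supplied 0.719% ± 0.336 in control hip caps and 58.9% ± 2.74 in control metatarsals. Under pressure Hoxc stayed the largest share in hip caps, at 51.9% ± 0.896 at 5 MPa (n = 4) and 47.3% ± 2.88 at 50 MPa (n = 3). The 3 hip cap libraries at 50 MPa (44.3% to 50.0%) lay below the 3 controls used (53.4% to 56.9%). With the control left out counted, the lowest control was at 49.2%, so the groups overlapped. All hip caps at 50 MPa were unstranded and control replicates 1 and 2 were stranded, and these shares carry no batch term. Metatarsals under pressure had a Hoxc share of 2.47% ± 0.417 and 2.74% ± 0.667. The share of Hoxd10 to Hoxd13 was 0.789% ± 0.384 and 1.21% ± 0.688 in hip caps at 5 and 50 MPa, and 58.0% ± 3.80 and 55.3% ± 3.53 in metatarsals. Hoxa genes made up 26.9% of the total in control hip caps and 32.2% in control metatarsals, so the share of that cluster differed much less than its makeup. Hoxa10 to Hoxa13 made up 5.68% in hip caps and 16.2% in metatarsals. The Hoxb cluster was small in both tissues, at 4.61% in control hip caps and 2.46% in control metatarsals.

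**Figure D1:**
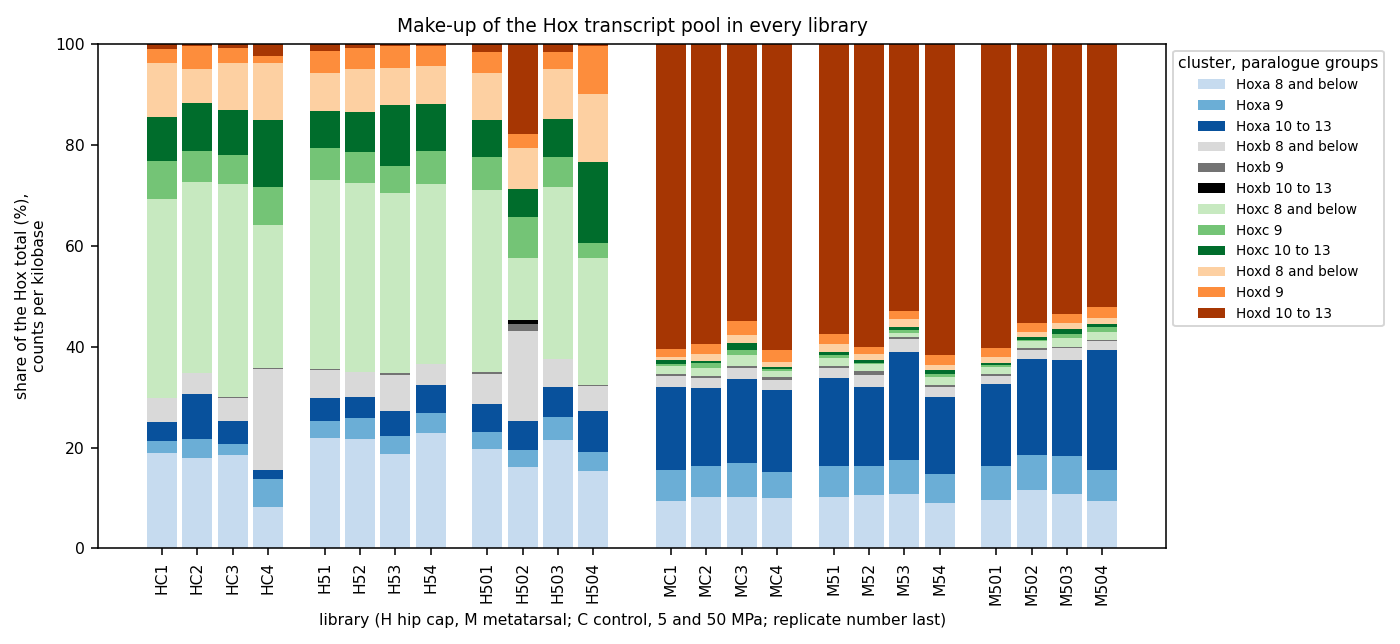
Makeup of the Hox total in each library, as stacked percentages of the summed CPM per kb of the 39 genes, coloured by cluster and paralogue class, all 24 libraries shown. Hoxc was the largest share of the group mean in hip caps (55.3% in controls, 47.3% at 50 MPa) and Hoxd10 to Hoxd13 in metatarsals (58.9% and 55.3%), while 50 MPa hip cap replicate 2, left out of these means, had 26.0% from Hoxc.

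Ranked per kilobase in control hip caps, Hoxc6 stood first at 27.7 ± 5.66 CPM per kb. It was followed by Hoxc8 (15.8 ± 5.49), Hoxc10 (12.0 ± 1.04), Hoxc9 (9.62 ± 2.25), Hoxd8 (9.02 ± 2.84) and Hoxc5 (8.03 ± 1.01). From Hoxc8 downwards the mean ± SD of neighbours in this order overlapped. In control metatarsals the order was Hoxd11 (36.5 ± 4.05 CPM per kb), Hoxd13 (26.5 ± 3.41), Hoxd10 (12.1 ± 1.70), Hoxa10 (9.47 ± 0.629), Hoxa13 (8.84 ± 1.41) and Hoxa9 (8.24 ± 0.697), of which the last 3 overlapped with each other. The place of Hoxd11 rests on the short coding transcript: over the union of its exons it stood at 9.63 CPM per kb. At the depth of each library, 26, 31 and 22 of the 39 genes had over 3 counts in every hip cap library at 0, 5 and 50 MPa, and 27, 30 and 31 in every metatarsal library.

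Set between tissues, Hox genes went both ways, and the direction followed cluster and position. In controls 17 of the 34 tested Hox genes were higher in hip caps, 7 were lower and 10 were not called (70.6% called, where 29.9% of all genes tested were called, 14.1% higher and 15.9% lower). At 5 MPa, where all 8 libraries were of the same run and library type, 24 were higher, 9 lower and 1, Hoxb1, was not called (97.1%, against 37.9% of all genes, 18.8% higher and 19.1% lower). At 50 MPa 19 were higher, 6 lower and 9 not called (73.5%, against 19.7% of all genes, 10.1% higher and 9.58% lower). In the mean of the 3 pressures 24 were higher and 8 lower (42.9% of all genes were called, 20.5% higher and 22.4% lower), and Hoxb1 and Hoxb9 were not called. The median log2 fold change of the Hox genes, hip cap over metatarsal, was 1.25, 1.51 and 1.60 at the 3 pressures, beside -0.08, -0.08 and -0.01 for all genes. The groups did not overlap for 19 Hox genes higher and 8 lower in control hip caps (19.6% and 22.7% of all genes), and for 13 and 8 when all 24 libraries were counted (12.1% and 15.1%). At 5 MPa they did not overlap for 23 higher and 9 lower (19.2% and 21.5% of all genes) and at 50 MPa for 20 higher and 8 lower (18.4% and 21.4%), or 19 and 8 with all 24 libraries (9.3% and 10.8%).

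These counts depended on the scaling for the weaker differences. When libraries were scaled by total counts only, without TMM, the median of all genes moved to -0.97, -0.70 and -0.90 on the log2 scale at 0, 5 and 50 MPa. The Hox genes called higher then numbered 9, 15 and 9, against 8, 9 and 8 lower. The share of all genes called under this scaling is not given, so these counts are not read against it. Single libraries also moved them: without control metatarsal replicate 1, 8 Hox genes were higher in control hip caps, and without 50 MPa metatarsal replicate 4, 9 were higher and 2 lower at 50 MPa. Among libraries of 1 run and type, 8 were higher and 5 lower in controls (2 hip cap libraries against 1, 25 Hox genes tested, 1271 of 16095 genes called), and 6 were higher and 5 lower at 50 MPa (3 against 1, 33 tested, 791 of 20393 genes called). The metatarsals are 1 library in both, assumed to vary like the hip caps.

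**Figure D2:**
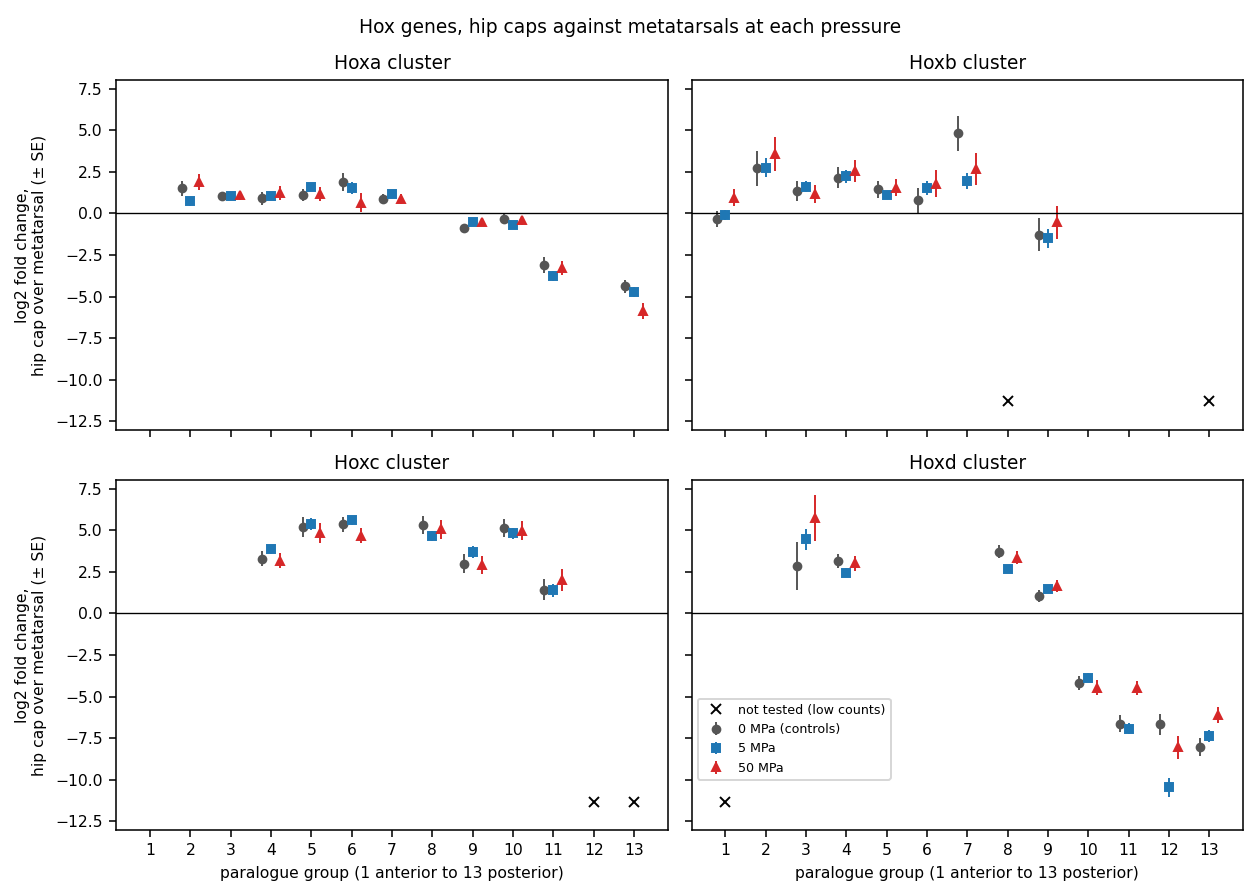
Log2 fold change of the tested Hox genes reported here, hip cap over metatarsal, along each cluster by paralogue number, at 0, 5 and 50 MPa, with bars of 1 standard error from the edgeR fit and crosses for untested genes. The position of Hoxd12 depends on how 0 counts are handled. The 7 tested Hoxc genes, Hoxc4 to Hoxc11, lay above 0 at every pressure. The Hoxa and Hoxd clusters crossed from above 0 at low numbers to far below 0 at Hoxa13 and Hoxd13.

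The Hoxd cluster held the widest split. Hoxd13, which shapes the digits, was at 0.528, 0.154 and 0.185 CPM in control hip caps and at 71.0, 73.6, 54.6 and 64.2 CPM in control metatarsals. The groups lay far apart, at a log2 fold change of -8.01 ± 0.54 (SE, adjusted p = 3.2e-09 in edgeR). It was -7.38 ± 0.36 at 5 MPa and -6.09 ± 0.46 at 50 MPa. Hoxd12, another digit gene, had 2 counts over the 3 control hip cap libraries and 697 over the 4 control metatarsal libraries, a 131-fold lower level (95% counting interval 36.2 to 1085). At 5 MPa it had no count in hip caps against 976 in metatarsals, which is at least 284-fold lower with a floor of 3 counts over the group. At 50 MPa it had 1 count against 819.

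Hoxd11, which with Hoxa11 forms the lower limb segment, was at 1.06, 0.154 and 0.185 CPM in control hip caps and at 44.6, 39.7, 34.5 and 43.3 CPM in control metatarsals. The log2 fold change was -6.62 ± 0.49 in controls, -6.92 ± 0.35 at 5 MPa and -4.46 ± 0.43 at 50 MPa. Hoxd10, a gene of the upper and lower leg, was at 0.528, 0.618 and 1.39 CPM in control hip caps and at 19.3, 22.7, 19.6 and 25.9 CPM in control metatarsals. Its log2 fold change was -4.17 ± 0.41 (adjusted p = 1.9e-07 in edgeR), with -3.87 ± 0.27 and -4.45 ± 0.43 under pressure. The neighbour Hoxd9, a gene of the upper limb segment, was on the other side, at 9.77, 14.5 and 8.41 CPM in control hip caps and 4.27, 5.71, 7.60 and 6.90 CPM in control metatarsals. None of the libraries used crossed from one group into the other. The log2 fold change was 1.07 ± 0.37 (adjusted p = 0.032 in edgeR), then 1.47 ± 0.23 and 1.65 ± 0.37 at 5 and 50 MPa. Control hip cap replicate 4, left out of these values, was at 1.12 CPM per kb, below every control metatarsal library (2.00 to 3.56). With it counted, the control difference in mean log2 level fell from 0.816 to 0.290 (p = 0.657 in the exact two-sided permutation test). At 5 and 50 MPa the groups stayed apart with all libraries counted.

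Hoxd8, a gene of the trunk, was at 31.7, 16.8 and 22.7 CPM in control hip caps and at 0.743, 2.91, 3.38 and 2.47 CPM in control metatarsals, all lower. The log2 fold change was 3.72 ± 0.41 in controls, 2.66 ± 0.24 at 5 MPa and 3.34 ± 0.39 at 50 MPa. Hoxd4, which patterns the neck, followed it at 3.16 ± 0.43, 2.46 ± 0.25 and 3.01 ± 0.44. Hoxd3 was called at 5 MPa (4.45 ± 0.65) and 50 MPa (5.74 ± 1.36) but not in controls (2.85 ± 1.44, adjusted p = 0.143 in edgeR). The counts of Hoxd3 and Hoxd4 are uncertain, because 61.1% and 49.1% of their 31-base words also occur in other annotated genes, mainly Gm28230. The exact two-sided permutation test of a single gene could not go below p = 0.0286 with 3 libraries against 4 or 4 against 4.

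**Figure D3:**
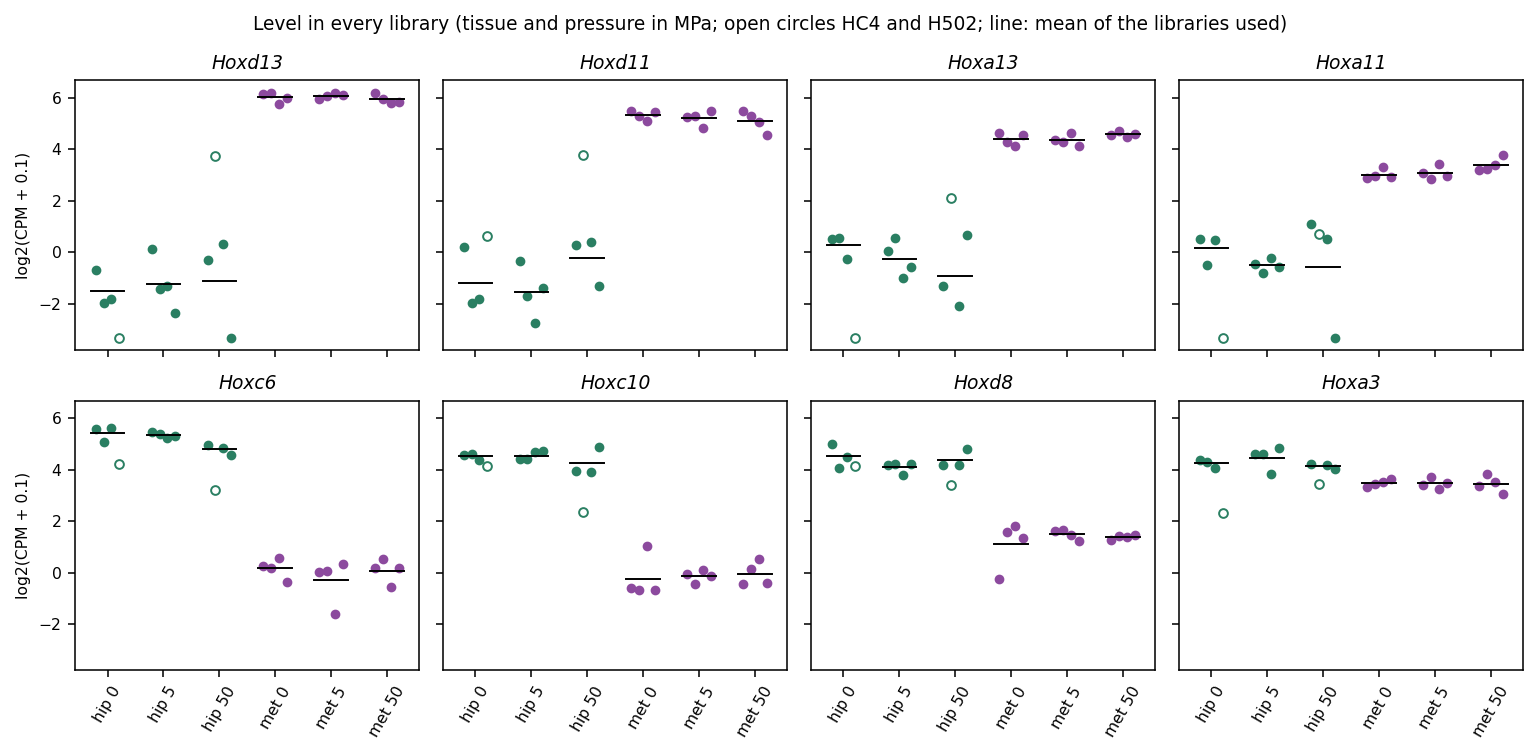
Level of 8 Hox genes in each library of the 6 groups as log2(CPM + 0.1), with a line at the mean of the libraries used and open circles for the 2 libraries left out of the fit. Hoxd13, Hoxd11, Hoxa13 and Hoxa11 were higher in every metatarsal library than in any hip cap library, and Hoxc6, Hoxc10 and Hoxd8 the reverse, while Hoxa3 differed less.

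In the Hoxa cluster the same order appeared with smaller differences at low numbers. Hoxa13, needed for the hand and foot plate, was at 1.32, 1.39 and 0.74 CPM in control hip caps and at 24.7, 19.3, 17.4 and 23.2 CPM in control metatarsals. Every metatarsal library was above every hip cap library, with a log2 fold change of -4.39 ± 0.42 in controls (adjusted p = 1.1e-07 in edgeR), -4.71 ± 0.30 at 5 MPa and -5.89 ± 0.48 at 50 MPa. Hoxa11 was at 1.32, 0.618 and 1.29 CPM in control hip caps and at 7.24, 7.64, 9.93 and 7.49 CPM in control metatarsals, a log2 fold change of -3.10 ± 0.46, then -3.77 ± 0.32 and -3.30 ± 0.42. Within the stranded run 1 libraries it was -2.96, and 33.9% of its 31-base words are shared in antisense with other genes, mainly Hoxa11os.

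Hoxa10 and Hoxa9, genes of the upper limb segment, were abundant in both tissues. Hoxa10 was at 12.9, 31.2 and 12.8 CPM in control hip caps and at 23.0, 26.3, 23.0 and 24.8 CPM in control metatarsals, so the hip cap values spanned those of the metatarsals. It was not called in controls (-0.33 ± 0.29, adjusted p = 0.42 in edgeR) or at 50 MPa (-0.42 ± 0.29), and was lower in hip caps at 5 MPa (-0.69 ± 0.20, adjusted p = 0.0084). Hoxa9 was at 11.9, 18.2 and 9.34 CPM in control hip caps and at 27.3, 28.6, 27.1 and 23.4 CPM in control metatarsals, a log2 fold change of -0.88 ± 0.21. It was -0.55 ± 0.14 at 5 MPa, also called, and -0.53 ± 0.22 at 50 MPa, not called.

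Hoxa2 to Hoxa7, genes of the hindbrain, neck and upper trunk, were all called higher in hip caps at 5 MPa, with log2 fold changes from 0.73 for Hoxa2 to 1.60 for Hoxa5. In controls 5 of these 6 were called and Hoxa4 was not. Hoxa3, known for organs of the throat, was at 20.6, 19.9 and 16.8 CPM in control hip caps and at 10.0, 10.9, 11.6 and 12.3 CPM in control metatarsals, with no overlap and a log2 fold change of 1.03 ± 0.25. Hoxa7, a trunk gene, was at 8.71, 8.03 and 6.75 CPM in control hip caps and at 4.64, 4.31, 3.83 and 5.10 CPM in control metatarsals, at 0.89 ± 0.28. These smaller differences are the ones that moved with the scaling: scaled by total counts only, Hoxa7 came to -0.01 in controls. With all 24 libraries no Hoxa gene was higher in every control hip cap library than in every control metatarsal library.

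The Hoxc cluster stood apart in that all of its 7 tested genes, from Hoxc4 to Hoxc11, were higher in hip caps at 5 and 50 MPa. In controls 6 of 7 were higher. Of all genes tested, 18.8%, 10.1% and 14.1% were called higher at 5 MPa, at 50 MPa and in controls. Hoxc6, a gene of the chest region, was at 47.8, 33.5 and 50.0 CPM in control hip caps and at 1.11, 1.04, 1.39 and 0.674 CPM in control metatarsals. The log2 fold change was 5.35 ± 0.45 (adjusted p = 2.5e-08 in edgeR), with 5.61 ± 0.28 at 5 MPa and 4.67 ± 0.46 at 50 MPa. Hoxc8, also a chest gene, was at 31.1, 38.8 and 18.5 CPM in control hip caps and at 0.743, 1.51, 1.55 and 0.6 CPM in control metatarsals, at 5.33 in controls, 4.67 at 5 MPa and 5.05 at 50 MPa on the log2 scale. Hoxc5 was likewise higher in hip caps at 5.20, 5.39 and 4.85, and Hoxc4 at 3.29, 3.85 and 3.17.

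The Hoxc genes of high number that could be tested were likewise on the side of the hip caps. Hoxc10, a gene of the hindlimb and lower back, was at 23.8, 24.4 and 20.7 CPM in control hip caps and at 0.557, 0.519, 1.94 and 0.525 CPM in control metatarsals. Its log2 fold change was 5.13 ± 0.56 in controls, 4.83 ± 0.32 at 5 MPa and 4.97 ± 0.57 at 50 MPa, where its paralogue Hoxd10 was at -4.17, -3.87 and -4.45. Hoxc9 was at 28.8, 21.3 and 18.4 CPM in control hip caps and at 1.49, 3.12, 2.99 and 1.65 CPM in control metatarsals, at 2.99 ± 0.56, 3.69 ± 0.35 and 2.92 ± 0.53. Hoxc11, another hindlimb gene, was low in both, at 2.90, 2.32 and 2.03 CPM in control hip caps and 1.11, 0.519, 1.22 and 0.525 CPM in control metatarsals. It did not overlap between the control groups but was not called there (1.41 ± 0.63, adjusted p = 0.098 in edgeR), and was called at 5 MPa (1.40 ± 0.39) and 50 MPa (2.02 ± 0.68). Hoxc12 and Hoxc13 had too few counts for a test.

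The Hoxb cluster was low in both tissues, and fewer of its genes were called. Of 8 tested genes, 3 were higher in hip caps and 5 not called in controls, where 29.9% of all genes were called. At 5 MPa 6 were higher and 1 lower (37.9% of all genes were called), and at 50 MPa 3 were higher and 5 not called (19.7%). Hoxb2 and Hoxb5 were among the 3 at 50 MPa, and their calls rest on the model. In levels without batch terms their mean log2 differences were 1.61 and 0.19 (p = 0.343 and 0.857 in the exact two-sided permutation test). Hoxb4, which acts in blood stem cells and in the neck region, was at 7.39, 2.01 and 1.85 CPM in control hip caps and at 0.743, 0.519, 0.61 and 1.05 CPM in control metatarsals, and was called at all 3 pressures with log2 fold changes of 2.15, 2.22 and 2.56. Hoxb7, a trunk gene, was at 1.58, 1.85 and 2.13 CPM in control hip caps and had no count in 2 of 4 control metatarsal libraries, with 0.208 and 0.277 CPM in the others. It was called in controls (4.81 ± 1.04) and at 5 MPa (1.92 ± 0.48). Hoxb9, the one tested Hoxb gene of high number, was lower in hip caps at 5 MPa alone among the 3 comparisons (-1.50 ± 0.55, adjusted p = 0.037 in edgeR), with -1.29 ± 0.98 in controls and -0.54 at 50 MPa, neither called. Hoxb1, a hindbrain gene, was not called at any pressure. Hoxb3 and Hoxb2 share 52.6% and 26.5% of their 31-base words in antisense with other genes, mainly Hoxb3os.

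The largest differences kept their direction within a single run and library type, where a tissue was at times 1 library. In the run 1 stranded controls the log2 fold change was -7.79 for Hoxd13, -6.39 for Hoxd11, -5.01 for Hoxd10, -4.17 for Hoxa13, 5.14 for Hoxc6, 5.50 for Hoxc8, 5.36 for Hoxc10 and 4.96 for Hoxd8. In the run 1 unstranded libraries at 50 MPa it was -6.15 for Hoxd13, -5.79 for Hoxa13, 4.75 for Hoxc6, 4.86 for Hoxc10 and 2.98 for Hoxd8.

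In edgeR no Hox gene was called for pressure. None of the 34 tested genes passed in hip caps at 5 MPa (where 0.0188% of all genes passed), in hip caps at 50 MPa (5.18%), or in metatarsals at 5 or 50 MPa (0% each). At an unadjusted p under 0.05 there were 2, 6, 0 and 0 Hox genes in the same order, beside 3145, 4819, 689 and 828 of the 21283 genes. No Hox gene passed in edgeR's test of the interaction of tissue and pressure (0.0188% and 0.132% of all genes at 5 and 50 MPa), where 3 and 7 Hox genes, and 2381 and 3900 of all genes, had an unadjusted p under 0.05. DESeq2 called 1 Hox gene, Hoxd11, as higher in hip caps at 50 MPa (log2 fold change 2.21, adjusted p = 0.022) and in the 50 MPa interaction (2.20, adjusted p = 0.031), and none in the other 4 tests.

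Hoxd11 was at 1.13, 1.21 and 0.3 CPM in hip caps at 50 MPa, where control hip caps were at 1.06, 0.154 and 0.185, so the groups overlapped, and edgeR gave 2.17 ± 0.74 (adjusted p = 0.086). It passed in edgeR without control hip cap replicate 1 (2.91, adjusted p = 0.047) or without 5 MPa hip cap replicate 3 (2.15, adjusted p = 0.042), and Hoxa9 passed without control hip cap replicate 2 (0.71, adjusted p = 0.042). In the interaction at 50 MPa, Hoxa13 passed without 50 MPa hip cap replicate 4 (-2.37, adjusted p = 0.0497). Hoxc6 was at 31.5, 28.7 and 23.7 CPM in hip caps at 50 MPa, below all 3 control values used, with a log2 fold change of -0.79 ± 0.32 (adjusted p = 0.146). Hoxc8 was the other Hox gene lower without overlap at 50 MPa (7.56% of all genes tested were), and neither stayed apart with all 24 libraries (0.752% of all genes did). At 5 MPa, 4 Hox genes were higher without overlap (Hoxa7, Hoxb5, Hoxb6 and Hoxd3, with 8.39% of all genes), and 2 with all 24 libraries (Hoxa7 and Hoxb6, with 2.89%). All 3 control hip caps used were of run 1 and all 4 at 5 MPa of run 2, so run and pressure cannot be told apart in these levels, and the run term of the fit rests on the metatarsals. A gene that missed the threshold is not shown to have stayed the same. In metatarsals Hoxd13 was at 63.0 to 72.8 CPM at 5 MPa and 56.3 to 74.2 CPM at 50 MPa, around the control range, with log2 fold changes of 0.09 ± 0.26 and 0.01 ± 0.26.

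**Figure D4:**
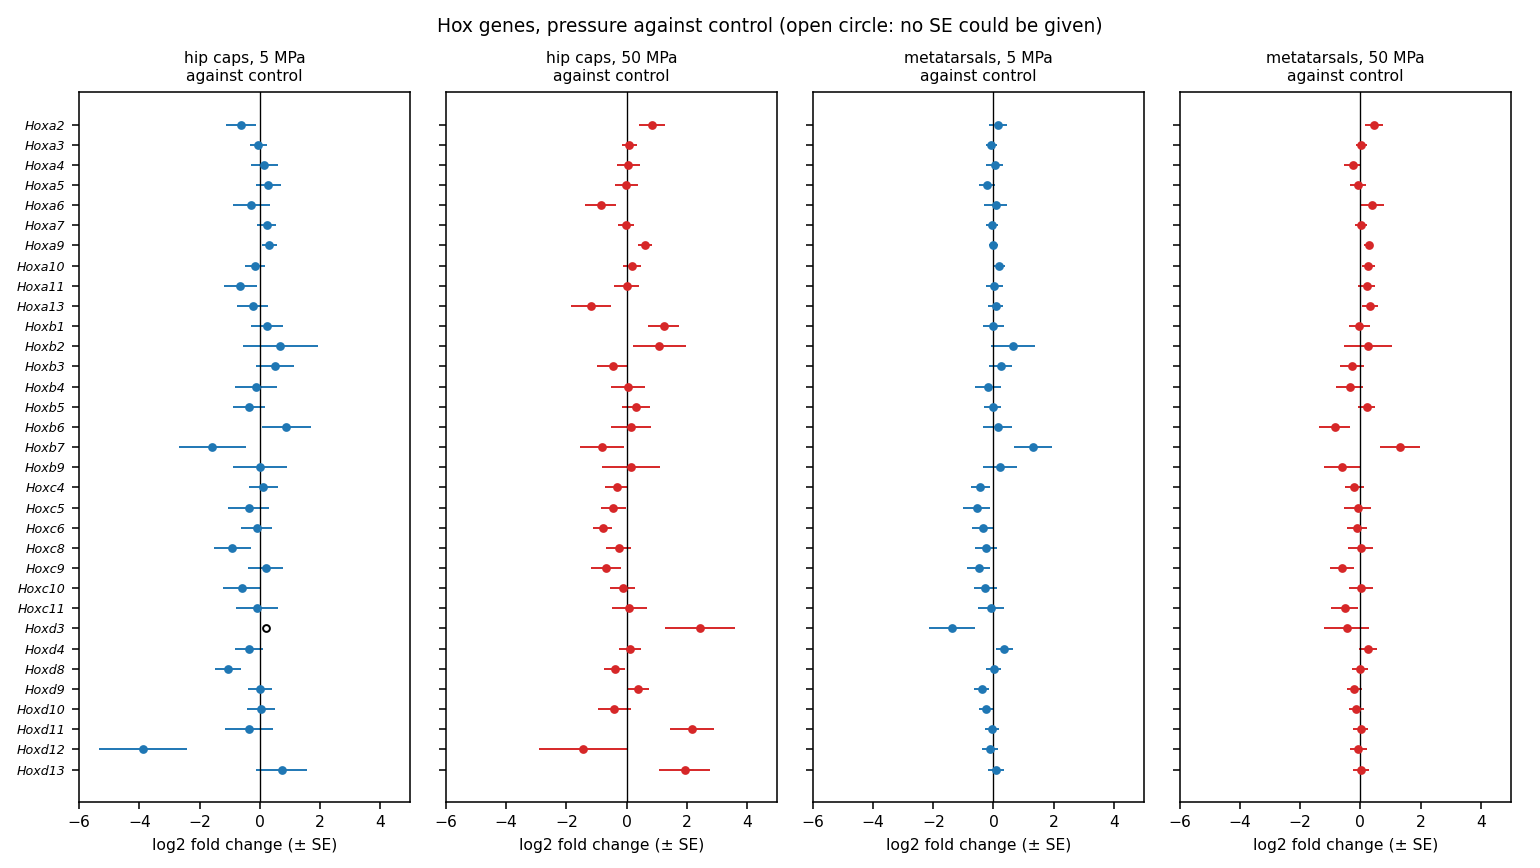
Log2 fold change of the tested Hox genes reported here under 5 or 50 MPa against control in hip caps and metatarsals, by cluster and number, with bars of 1 standard error. The open circle is Hoxd3 in hip caps at 5 MPa, for which no usable standard error was found, Hoxd12 in hip caps rests on 2 counts or fewer in a group, and edgeR called no Hox gene here.

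Antisense genes of the Hoxa cluster were higher in the unstranded libraries. Hoxaas2 and Hoxaas3, which run against Hoxa3 and Hoxa7, summed to 0.342 to 1.85 CPM in the 7 stranded hip cap libraries and to 8.11 to 15.0 CPM in the 5 unstranded ones, all 24 libraries counted. Of the 5 unstranded hip cap libraries 4 were at 50 MPa, and control hip cap replicate 3, the only unstranded control, was at 15.0 CPM. Relative to Hoxa3 the sum was 0.0337 to 0.0938 and 0.500 to 0.931. In metatarsals it was 0.300 to 0.929 CPM in 11 stranded libraries and 3.62 CPM in the 1 unstranded library, which was also at 50 MPa. Hoxa3 and Hoxa7 share 23.6% and 19.6% of their 31-base words in antisense with other genes, mainly Hoxaas2 for Hoxa3 and Hoxaas3 for Hoxa7. All hip cap libraries at 50 MPa were unstranded and 1 of the 3 control hip cap libraries used was, so the tissue values of these genes at 50 MPa rest on the library term of the model.

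**Figure D5:**
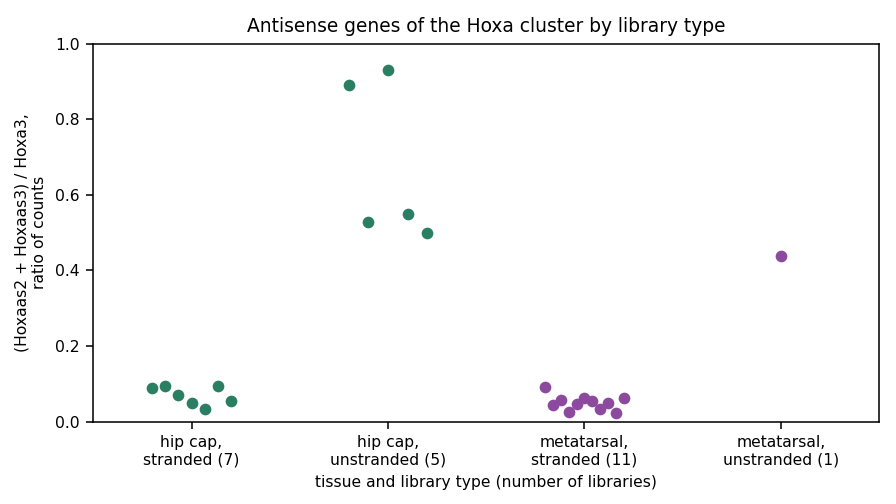
Ratio of the summed counts of Hoxaas2 and Hoxaas3 to those of Hoxa3 in each of the 24 libraries, by tissue and library type. Unstranded libraries lay above stranded ones in both tissues, at 0.500 to 0.931 against 0.0337 to 0.0938 in hip caps.

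The libraries left out carried Hox genes at unusual levels. In 50 MPa hip cap replicate 2, Hoxd13 was at 13.2 CPM and Hoxd11 at 13.5 CPM, between the hip cap and metatarsal ranges, and Hoxb1 was at 15.8 CPM, the highest of the 24 libraries. With all 24 libraries the mean share of Hoxd10 to Hoxd13 in hip caps at 50 MPa was 5.38%. That 50 MPa replicate also had 21.8 CPM of epidermal markers (6 of 6 detected) and 216 CPM of muscle markers (15 of 15), above the other hip caps. Control hip cap replicate 4 had no count of Hoxa11 or Hoxa13, with cartilage markers at 10356 CPM, below the other hip caps, and leukocyte markers at 828 CPM. The part of these cells in the Hox levels was not tested.

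Other genes that act with or beside Hox genes were counted in the control comparison, from lists chosen with earlier results of these data known, and 29.9% of all genes were called there (14.1% higher, 15.9% lower). Of 9 TALE cofactors, homeodomain proteins that bind DNA with Hox proteins, 2 were higher in hip caps (Meis1 2.00 ± 0.31, Meis2 2.54 ± 0.38) and 1 lower (Pbx3 -1.50 ± 0.23), a share near that of all genes. Of 22 Polycomb and trithorax genes, which hold Hox clusters off or on, 2 were higher and 5 lower, among them Cbx7 (1.87), Pcgf2 (-1.39), Ezh2 (-1.35) and Jarid2 (-1.28), again a share near that of all genes. Of 16 tested limb genes, 3 were higher and 9 lower, and the list's median log2 fold change was -1.77 beside -0.08 for all genes. Evx2, the homeobox gene next to Hoxd13, had no count in the 3 control hip cap libraries and was at 11.7, 12.2, 11.3 and 11.2 CPM in metatarsals, at least 81.4-fold lower in hip caps. Sall1 (-4.55) and Epha7 (-4.13), both genes of the limb bud, were lower and Shox2 (3.24), a gene of the upper limb segment, was higher. Of 5 tested upstream activators 1 was higher (Rarg 0.73) and 3 lower (Aldh1a2 -5.75 ± 1.15, Rarb -3.25, Gdf11 -2.66).

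Of 7 tested non-coding genes of the clusters, 2 were higher in control hip caps (Hoxd3os1 3.16, Hoxaas3 1.98) and 2 lower, where 29.9% of all genes were called. The value of Hoxaas3 rests in part on the library term of the model. With Hoxaas2 it summed to 1.85 CPM in each stranded control hip cap used and 15.0 CPM in the unstranded one. Control metatarsals, all stranded, were at 0.300 to 0.929 CPM. Hottip, which lies beyond Hoxa13, had no count in control hip caps and was at 1.11 to 1.42 CPM in control metatarsals, at least 9.16-fold lower in hip caps. Hoxa11os, antisense to Hoxa11, was at 0.792, 0.464 and 1.02 CPM in control hip caps and at 16.3, 23.9, 25.2 and 39.7 CPM in control metatarsals, a log2 fold change of -4.81 ± 0.39. Both low genes lie beside Hoxa genes that were lower in hip caps as well.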

How the data were processed

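The authors sequenced rRNA-depleted total RNA of low integrity, trimmed reads with Trim Galore 0.6.5 and deposited estimated counts per gene from kallisto and tximport, and the labels name the GRCm39 build and DESeq2. The kallisto version is not given in the sources used here. The deposited table held 0 columns of other samples. Estimated counts were rounded, filtered with filterByExpr and tested with edgeR 4.0.16 (TMM, robust quasi-likelihood fit, two-sided, Benjamini-Hochberg) in R 4.3.3 on the 22 libraries that the study used, with group, sequencing run and library type as terms. Library type came from the labels. Run was read from the strip beside the study's heat map, and that split differs from the numbers of libraries the methods give for the sequencing kits, so the run term is uncertain. The fitting script was tested on simulated data. Alternatives were DESeq2 1.42.0, other scalings, filters, batch terms and libraries. The members and lists were chosen with earlier results of these data known. Statistics were given for tested Hox genes of groups 9 to 13 and for part of the other Hox genes that passed in a tissue comparison. Tissue fold changes of the main fit are not printed for Hoxa4, Hoxa6, Hoxb2, Hoxb3, Hoxb5 and Hoxb6, which passed at 5 MPa. From each list at most 4 genes with the largest changes called in controls were named. Symbols, lengths, GC content and shared 31-base words came from GENCODE M21 (GRCm38), which gave a symbol for 48845 of 52178 genes. Pressures are in MPa, as in the study's methods. The values of 1 gene are not reported here, although counts over the clusters include it. Intervals and floors of counts cover counting error only.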

Additional observations from a re-analysis of the deposited data

Results flagged for a closer look

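In 10 of 135 groups of 4 libraries, 1 library lay apart from the other 3 by Dixon's criterion, and chance gives about 1 in 20. At 5 MPa hip cap replicate 3 was low for Hoxa4 (2.45 CPM, others 3.93 to 4.23), Hoxa5 (8.50, others 15.2 to 15.6), Hoxc5 (14.4, others 23.2 to 24.7) and Hoxd8 (13.8, others 18.0 to 18.8). Its cartilage markers were also lowest of the group (24433 CPM, others 40022 to 57593). Its leukocyte markers (887 CPM, others 127 to 243) and perichondrial and limb connective tissue markers (6904 CPM, others 2035 to 3573) were highest. The part of these cells in its Hox levels was not tested. Control metatarsal replicate 3 was high for Hoxa11 (9.93 CPM, others 7.24 to 7.64) and Hoxc10 (1.94, others 0.520 to 0.557), and control metatarsal replicate 4 was low for Hoxa6 (1.50, others 2.00 to 2.08). Hoxd12 was low in 5 MPa metatarsal replicate 2 (9.18 CPM, others 12.3 to 12.4) and in 50 MPa metatarsal replicate 3 (9.10, others 12.4 to 13.1), and Hoxb5 in 50 MPa metatarsal replicate 4 (0.444, others 1.41 to 1.60). The library outside the fit, 50 MPa hip cap replicate 2, held 13 counts of Hoxb13, which had none in any other library, and 13 counts of Hoxc12, which had at most 2 elsewhere.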

How the results depend on the processing

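Depth limited the genes with 3 counts or fewer in both groups compared, whose changes were not detectable. The cause of the shifts below was not tested, apart from the smaller number of genes or libraries that some settings leave. Hox counts are given below without the share of all genes called under each setting, so they are not read against it. With at least 10 counts in every library 6 Hox genes could be tested, and those higher and lower in hip caps numbered 3 and 1 (controls), 4 and 2 (5 MPa), 3 and 0 (50 MPa), and 4 and 2 (mean of the pressures). With library sizes alone 9, 15, 9 and 13 were higher in controls, at 5 MPa, at 50 MPa and in the mean. Within 1 batch 8 were higher in controls and 6 at 50 MPa. Without batch terms 1 Hox gene, Hoxb5, was higher in hip caps at 5 MPa, and DESeq2 called 1 higher at 50 MPa and 1 higher in its interaction. The block on replicate number gave 13 higher and 7 lower (controls), 24 and 9 (5 MPa), 15 and 6 (50 MPa), 23 and 8 (mean) and 0 under pressure. Libraries of the same replicate number had correlations of deviations from -0.37 to 0.35 (50 pairs, median 0.014). Unlike numbers were not compared, so whether replicate numbers pair the libraries is not settled. Leaving out each library in turn gave 8 to 19 higher and 6 to 8 lower in controls, 23 to 24 and 7 to 9 at 5 MPa, 9 to 19 and 2 to 7 at 50 MPa, 17 to 24 and 5 to 9 in the mean, 0 to 1 higher in hip caps at 50 MPa and 0 to 1 lower in its interaction. Without 50 MPa metatarsal replicate 4 the mean of the pressures had 5 lower. With all 24 libraries hip caps at 50 MPa had a Hoxc share of 42.0% and a share of Hoxd10 to Hoxd13 of 5.38%, which was 1.16% in controls. By the union of exons the metatarsal share of Hoxd10 to Hoxd13 was 53.7%, 53.4% and 50.7%.

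Directions turned for weak differences, given as log2 fold changes. With library sizes alone these were Hoxa7 -0.0085 and Hoxb6 -0.11 in controls and Hoxa6 -0.16 and Hoxa7 -0.032 at 50 MPa. With all 24 libraries they were Hoxa4 -0.085 and Hoxa5 -0.071 in controls and Hoxa6 -0.090 and Hoxb9 0.40 at 50 MPa. In controls Hoxb5 came to -0.13 without batch terms and -0.10 in the compared libraries alone. At 50 MPa Hoxb9 came to 0.0070 within 1 batch. With 1 library left out, Hoxb6 ranged from -0.037 (without 50 MPa metatarsal replicate 4) to 2.04 in controls, where it was -0.033 without hip cap replicate 3. At 50 MPa Hoxb9 ranged from -2.76 to 0.035 (without hip cap replicate 3) and Hoxa10 from -0.62 to 0.14 (without metatarsal replicate 4).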
